A study of Homo sapiens with 6 samples.

Results

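The genes of hepcidin and liver iron handling were examined in RNA sequencing data from Hep3B cells, a human line established from a hepatocellular carcinoma. They were 10 of the 27009 genes in the deposited table and were picked by gene name: HAMP, HFE, TMPRSS6 and TFR2 for hepcidin and its control at the hepatocyte surface, TF and TFRC for transferrin and the receptor that takes it up, FTL and FTH1 for the chains of ferritin, and IREB2 and ACO1 for the iron-regulatory proteins. In all 6 libraries the cells lacked their own PD-L1 gene, which had been knocked out. In 3 of them (vector replicates 1 to 3) the cells carried the empty lentiviral vector, and in the other 3 (nPD-L1 replicates 1 to 3) they are labelled as overexpressing nPD-L1. By the study's methods this is a PD-L1 with an LCL stretch changed to ACA, carried in a stable line by pCDH-CMV-Puro, a vector with a viral CMV promoter. The study calls the sequenced samples independent, but neither it nor the labels say that they came from separate cultures, so the p values measure the spread between these libraries, which may be technical.

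Hepcidin is the liver hormone that lowers iron in the blood. It binds ferroportin, the only known cellular iron exporter, and causes its removal from the cell surface. Hepatocytes switch on HAMP through bone morphogenetic proteins (BMPs) and SMAD proteins, with HFE, TFR2 and hemojuvelin as helpers and the protease TMPRSS6 as a brake, and through interleukin-6 and STAT3 in inflammation. Inside the cell, iron-regulatory proteins bind short hairpins in mRNAs when iron is scarce, which blocks translation of the ferritin mRNAs and protects the TFRC mRNA from decay.

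These hairpins, the iron-responsive elements, were looked for by their letters in the GENCODE v29 transcripts (GRCh38), because they are the feature by which ferritin and transferrin receptor mRNAs are set against each other. The rule asked for an unpaired C, 5 paired bases on each side (G with U allowed) and the loop CAGTGN. FTH1 held 1 match in its 5′ UTR at chr11:61967574-61967602 on the − strand, and FTL held 1 in its 5′ UTR at chr19:48965335-48965363 on the + strand. TFRC held 4 in its 3′ UTR on the − strand, which are, along the mRNA, at chr3:196050979-196051007, chr3:196050575-196050603, chr3:196050510-196050538 and chr3:196050463-196050491. The exporter gene SLC40A1 held 1 in its 5′ UTR at chr2:189580661-189580689 on the − strand. In the lines that follow, the capitals mark the loop.
FTH1 5′ UTR: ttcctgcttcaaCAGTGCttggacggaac
FTL 5′ UTR: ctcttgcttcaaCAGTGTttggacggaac
SLC40A1 5′ UTR: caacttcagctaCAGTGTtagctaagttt
TFRC 3′ UTR, element 1: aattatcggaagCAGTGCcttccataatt
TFRC 3′ UTR, element 2: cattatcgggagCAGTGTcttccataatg
TFRC 3′ UTR, element 3: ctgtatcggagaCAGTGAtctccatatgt
TFRC 3′ UTR, element 4: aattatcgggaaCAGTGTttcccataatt

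By the same letters, 0.143% of 19627 protein-coding genes had a match in a 5′ UTR and 0.647% had one in a 3′ UTR. TF also had 1 match in its 3′ UTR, and HAMP, HFE, TMPRSS6, TFR2, IREB2 and ACO1 had none. A match is a run of letters and not a measured binding site.

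For hepcidin itself, the stretch of interest lies just before the start site, since BMP-SMAD and STAT3 signals act there. The 250 bases upstream of the HAMP start site in RefSeq (GRCh38.p14, chr19:35282278-35282527, + strand) are shown with capitals on GGCGCC, the core letters of a BMP-response element, and on TTCNNNGAA, the letters of a STAT site.
HAMP promoter: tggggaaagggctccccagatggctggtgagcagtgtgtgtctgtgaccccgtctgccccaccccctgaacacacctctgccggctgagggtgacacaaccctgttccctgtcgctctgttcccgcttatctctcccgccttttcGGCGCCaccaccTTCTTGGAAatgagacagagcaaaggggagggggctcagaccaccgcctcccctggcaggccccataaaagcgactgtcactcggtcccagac

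GGCGCC began 105 bases and TTCNNNGAA 93 bases upstream of the start site, and the matches did not overlap. Of 35116 promoter windows of 300 bases, searched on both strands, 19.2% held GGCGCC, 7.66% held TTCNNNGAA and 0.766% held both. The RefSeq table matched 7 of the 10 genes, and only the HAMP window among them held TTCNNNGAA. GGCGCC was also in windows of TF, TFRC, ACO1 and IREB2.

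The deposited values, called scaled reads here, were reads per gene after division by the size factor of the library. They summed to between 18082164 and 19682128 per library, and the reads recovered in 4 libraries numbered 17427519 to 22253295. CD274, the gene of PD-L1, had 28.3 to 47.8 scaled reads in the vector libraries and 16.8 to 30.9 in those labelled nPD-L1, so it was not higher where nPD-L1 had been introduced, and every direction given here rests on the labels. Vector replicate 2 stood apart in its tilt with gene length: across genes, the deviation of its log2 values from the 6-library mean had a Spearman rho of −0.37 with length, against −0.09 to 0.28 in the other libraries.

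The label of a liver cell was checked against 9 hepatocyte markers. AFP had no row by that name in the table used here and was not analysed. All 27009 rows of that table held reads in some library, and why AFP had no row was not tested. Of the other 8, ALB, APOA1, APOB, TTR and AHSG stayed under 10 scaled reads in every library. ALB, which encodes albumin, had 2.02, 1.13 and 0 scaled reads in vector replicates 1, 2 and 3 and 0 in all 3 nPD-L1 libraries. FGB, a fibrinogen chain, was present at 962 to 1540, SERPINA1 at 7.91 to 41.4, and the liver transcription factor HNF4A rose from 6.24 to 19.2 in the vector libraries to 33.8 to 51.6 in the nPD-L1 libraries (log2 difference 1.91, limma adjusted p = 0.0232). The other fibrinogen chains, FGA and FGG, had 1861 to 3286 and 658 to 1129 scaled reads, and the epithelial keratins KRT8 and KRT18 had 31077 to 39522 and 15100 to 23424. FGA, FGG, KRT8 and KRT18 were outside the list of markers and were named after their values were seen. The check was therefore mixed: of the 8 listed markers, 5 plasma protein genes were nearly absent, SERPINA1 and HNF4A were low and FGB was expressed. The cells are named here only by their label.

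**Figure D1:**
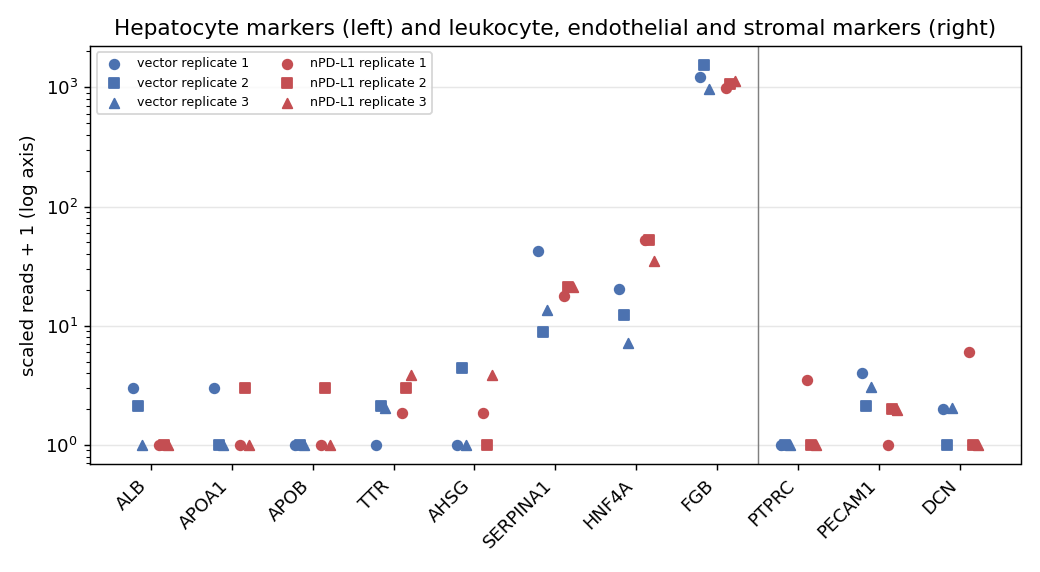
Scaled reads + 1 on a log axis for 8 hepatocyte markers, left of the line, and for PTPRC (leukocytes), PECAM1 (endothelium) and DCN (stroma), right of it, with 1 point per library. ALB, APOA1, APOB, TTR and AHSG sit under 10 scaled reads in all 6 libraries, FGB sits at 962 to 1540, and HNF4A is the marker whose nPD-L1 points lie above all its vector points.

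Leukocyte and endothelial markers were low, and some stromal and erythroid markers were not. Summed scaled reads of PTPRC and CSF1R, the 2 leukocyte markers of 5 in the table, were 1.04 to 2.02 in the vector and 3.03 to 13.4 in the nPD-L1 libraries, with PTPRC at 0 in 5 libraries. The 3 endothelial markers present of 5 (PECAM1, STAB2 and VWF) summed to 1.13 to 9.08 and 0.965 to 7.08. The 4 stellate cell and fibroblast markers present of 5 summed to 170 to 245 and 586 to 655, mostly COL1A1 and LUM, with DCN at 0 in 3 libraries. COL1A1, which encodes a collagen chain, rose by 2.84 on the log2 scale (limma adjusted p = 7.99e-06), and its part in any result was not tested. Of the 2 erythroid markers present of 5, SLC4A1 was at 0 in 5 libraries and EPOR, the erythropoietin receptor, had 111 to 140 scaled reads in all 6. In such bulk RNA, fewer cells of a type and less RNA per cell cannot be told apart.

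Hepcidin mRNA was at or under the limit of detection in every library. HAMP (ENSG00000105697, GRCh38 chr19:35280716-35285143, + strand) had 0, 0 and 2.08 scaled reads in vector replicates 1, 2 and 3, and 0 in nPD-L1 replicates 1, 2 and 3. The single value above 0 was 2 reads. A count of 0 allows up to 3 reads, which is 2.52 to 3.39 scaled reads per library. All 6 values lay under that floor, which covers counting error only, so no fold change was computed and a difference between the groups was not detectable at this depth.

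TMPRSS6 (ENSG00000187045, chr22:37065436-37109713, − strand), the membrane protease that cleaves hemojuvelin and so restrains hepcidin, was near the floor of 3 reads, and under it in vector replicate 2 and nPD-L1 replicate 1. It had 10.1, 2.26 and 9.35 scaled reads in vector replicates 1, 2 and 3 and 0.840, 9.10 and 9.65 in nPD-L1 replicates 1, 2 and 3. Each group held 1 library that was low and 2 near 10, and the groups overlapped. TF (ENSG00000091513, chr3:133745956-133796640, + strand), the plasma iron carrier made by hepatocytes, had 2.02 scaled reads in vector replicate 1 and in nPD-L1 replicate 2, and was at 0 in the other 4 libraries. This gene model overlaps SRPRB on the same strand, with 1203 scaled reads on average in the vector and 1080 in the nPD-L1 libraries, but 99.57% of the 26199 exon bases of TF are not shared with it.

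The sensors HFE and TFR2 were expressed, and neither passed the test. HFE (ENSG00000010704, chr6:26087281-26098343, + strand), the hemochromatosis protein that binds transferrin receptors, had 495, 587 and 436 scaled reads in vector replicates 1, 2 and 3 and 407, 500 and 552 in nPD-L1 replicates 1, 2 and 3. The highest library was a vector library and the lowest an nPD-L1 library, and the groups overlapped. On the log2(value + 1) scale, the difference of nPD-L1 minus vector was −0.06 (standard error 0.15, 95% confidence interval −0.40 to 0.28, limma adjusted p = 0.896).

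TFR2 (ENSG00000106327, chr7:100620416-100642779, − strand), a second transferrin receptor that acts as a sensor in hepatocytes, had 114, 98.3 and 117 scaled reads in vector replicates 1, 2 and 3 and 91.6, 120 and 138 in nPD-L1 replicates 1, 2 and 3. The nPD-L1 libraries enclosed the vector libraries on both sides. The log2 difference was 0.07 (standard error 0.20, interval −0.37 to 0.51, limma adjusted p = 0.906).

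TFRC (ENSG00000072274, chr3:196027183-196082189, − strand), the receptor that brings transferrin-bound iron into the cell, was abundant. It had 6579, 6574 and 7064 scaled reads in vector replicates 1, 2 and 3 and 6800, 7548 and 7880 in nPD-L1 replicates 1, 2 and 3. Both of the highest libraries were nPD-L1 libraries, while nPD-L1 replicate 1 lay below vector replicate 3, so the groups overlapped. The log2 difference was 0.13 (standard error 0.10, interval −0.09 to 0.36, limma adjusted p = 0.626), and the interval corresponds to a fold of 0.941 to 1.28.

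Ferritin light chain was the most abundant of these mRNAs. FTL (ENSG00000087086, chr19:48965301-48966878, + strand), the chain that helps iron to mineralise inside the ferritin shell, had 121302, 207463 and 98616 scaled reads in vector replicates 1, 2 and 3 and 125348, 150118 and 115751 in nPD-L1 replicates 1, 2 and 3. It took 0.540% to 1.05% of all scaled reads in a library. The highest and the lowest values were both vector libraries, and the log2 difference was −0.06 (standard error 0.24, interval −0.59 to 0.46, limma adjusted p = 0.931).

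FTH1 (ENSG00000167996, chr11:61959718-61967660, − strand), the heavy chain that oxidises iron for storage, ranked the libraries as FTL did, except that vector replicate 1 and nPD-L1 replicate 3 changed places. It had 24529, 41753 and 21154 scaled reads in vector replicates 1, 2 and 3 and 25475, 32251 and 24935 in nPD-L1 replicates 1, 2 and 3. Vector replicate 2 was again the highest and vector replicate 3 the lowest. The log2 difference was −0.03 (standard error 0.22, interval −0.52 to 0.46, limma adjusted p = 0.972).

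The ferritin chains varied together across the libraries and hardly against each other. Over the 6 libraries the coefficient of variation was 28.3% for FTL and 26.5% for FTH1, but 3.35% for their ratio, which ran from 4.64 to 4.97 in scaled reads and from 10.7 to 11.5 per kb of gene length. As a description, Pearson's r between them was 0.993 (n = 6 libraries, which share the size factor of each library). Vector replicate 2, the library with the highest ferritin values, was also the one with the strongest negative tilt with gene length, and genes of up to 1 kb lay 0.21 above the 6-library mean (log2) there in the median. FTL, with a gene length of 878 bases, belongs to that class, and FTH1, with 2030, does not. Both chains lay further above their own 6-library mean there than 0.21. The part of this tilt in the ferritin values was not tested. Without vector replicate 2 the log2 differences turned to 0.26 for FTH1 (unadjusted p = 0.0381, adjusted p = 0.252 in limma) and 0.25 for FTL (adjusted p = 0.344), and with a trend on gene length removed they were 0.03 and 0.01.

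**Figure D2:**
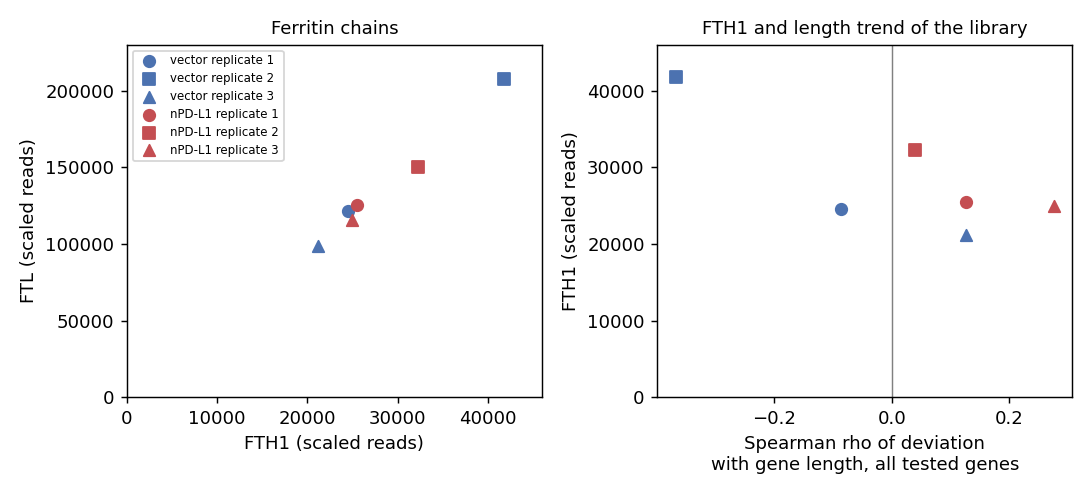
Left, FTL against FTH1 in scaled reads; right, FTH1 against the Spearman rho between each library's deviation and gene length, with 1 point per library. The points on the left follow 1 line because the ratio stays between 4.64 and 4.97, and vector replicate 2, at rho −0.37, has the highest FTH1 value (41753).

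Ferritin genes have many processed pseudogenes, among which reads could be split. The 13 FTH1 pseudogenes listed summed to 1.20% to 1.47% of the FTH1 value in each library, and the 4 FTL pseudogenes to 0.00925% to 0.0133% of FTL. How reads with several alignments were counted is not given in the sources used here.

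The iron-regulatory proteins were both expressed at moderate levels. IREB2 (ENSG00000136381, chr15:78437431-78501456, + strand), the iron-regulatory protein that is degraded when iron is plentiful, had 1894, 1814 and 2191 scaled reads in vector replicates 1, 2 and 3 and 2096, 2100 and 2256 in nPD-L1 replicates 1, 2 and 3. Vector replicate 3 lay within the nPD-L1 range. The log2 difference was 0.13 (standard error 0.10, interval −0.10 to 0.36, limma adjusted p = 0.637).

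ACO1 (ENSG00000122729, chr9:32384603-32454769, + strand), the cytosolic aconitase that binds iron-responsive elements once it has lost its iron-sulfur cluster, had 1373, 1590 and 1353 scaled reads in vector replicates 1, 2 and 3 and 1378, 1781 and 1488 in nPD-L1 replicates 1, 2 and 3. The groups overlapped, with the replicates numbered 2 the highest of each. The log2 difference was 0.10 (standard error 0.12, interval −0.17 to 0.37, limma adjusted p = 0.757).

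**Figure D3:**
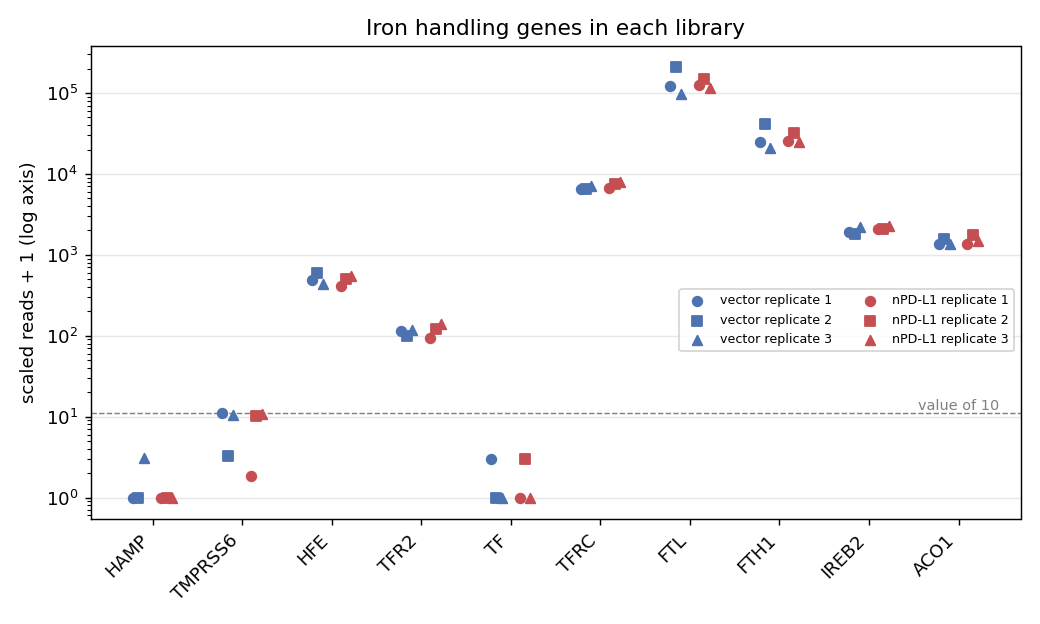
Scaled reads + 1 on a log axis for the 10 iron genes, with 1 point per library, vector in blue and nPD-L1 in red. HAMP and TF lie at or near 0, TMPRSS6 at or under about 10, and the other 7 between 91.6 (TFR2) and 207463 (FTL), and for every gene the points of the groups overlap.

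Set together, 7 of the 10 genes passed the filter (10 scaled reads or more in 3 libraries or more), and 0 were called higher and 0 lower at a limma adjusted p under 0.05. Over all 15076 genes tested, 4.04% were called higher and 0.922% lower, or 4.96% in either direction. At an unadjusted p under 0.05 the count was also 0, against 14.2% of all genes, and the groups overlapped for all 7, where 20.6% of all genes had no overlap. edgeR and DESeq2, run on the 4 libraries with recovered reads, called 0 of the 7 as well, with 0 at an unadjusted p under 0.05 in either tool. The median log2 difference over the 7 was 0.07, against −0.02 over all genes tested, and their intervals together spanned folds of 0.666 to 1.42.

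Per kb of gene length, the order of the levels in the vector libraries was FTL at 162256 ± 65405 scaled reads per kb, FTH1 at 14357 ± 5442, TFRC at 854 ± 35.7, ACO1 at 190 ± 17.4, IREB2 at 182 ± 18.4, HFE at 89.2 ± 13.4, TFR2 at 21.7 ± 2.02 and TMPRSS6 at 1.71 ± 1.02 (SD, n = 3). The order was the same in the nPD-L1 libraries, with FTL at 148525 ± 20197, FTH1 at 13573 ± 2008, TFRC at 939 ± 70.1, ACO1 at 205 ± 27.6, IREB2 at 199 ± 8.47, HFE at 85.6 ± 12.9, TFR2 at 23.0 ± 4.62 and TMPRSS6 at 1.54 ± 1.17 (SD, n = 3). Only ACO1 and IREB2 were neighbours closer than their spread. HAMP and TF came last and could not be ranked. The mean per kb of FTL exceeded that of 99.98% of the genes tested, FTH1 of 99.7%, TFRC of 94.0%, ACO1 of 71.8%, IREB2 of 71.1%, HFE of 53.0% and TFR2 of 25.9%.

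Because the hairpins act in opposite directions on TFRC and ferritin mRNAs, the ratio of TFRC to FTH1 was followed as well. It was −1.90, −2.67 and −1.58 on the log2 scale in vector replicates 1, 2 and 3 and −1.91, −2.09 and −1.66 in nPD-L1 replicates 1, 2 and 3. The nPD-L1 values fell inside the vector range. The difference was 0.16 (two-sided exact permutation p = 0.9, where 3 libraries against 3 cannot go below 0.1), and it turned to −0.15 (exact p = 0.4) without vector replicate 2. The ratio measures mRNA levels, while the ferritin hairpins act on translation, which was not measured.

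The genes whose log2 levels were most like those of TFRC over the 6 libraries, chosen because HAMP did not pass the filter, were PRKAB2 (Pearson's r 0.993), GALNT7 (0.990), BBS9 (0.988), MIR22HG (0.987) and SDC4 (0.986), out of 10724 genes with a mean of at least 100. Their adjusted p values in limma were 0.394, 0.537, 0.519, 0.495 and 0.574. With 6 libraries and so many genes, these are the extremes of a long list and a description only.

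The genes upstream of hepcidin were examined next, to see what moved around a HAMP mRNA that was not detected. Of 16 genes of the BMP-SMAD input, 15 were tested, since HJV (hemojuvelin) had no row by that name in the table used here. BMP2, BMPR2, FURIN and ACVR1 rose, which makes 4 higher and 0 lower, where 4.04% of all genes tested rose and 0.922% fell. The median log2 difference of the 15 was 0.14. The pathway lists were written with earlier results of these data known, so their counts are a description and not independent support.

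BMP2, a ligand that can switch on HAMP, had 18.2, 27.1 and 13.5 scaled reads in vector replicates 1, 2 and 3 and 94.1, 94.1 and 77.2 in nPD-L1 replicates 1, 2 and 3, with no overlap. Its log2 difference was 2.17 (standard error 0.29, limma adjusted p = 0.00132). BMP6, the main iron-responsive BMP ligand of the liver, had 182, 194 and 142 against 139, 201 and 177 (log2 difference −0.01, interval −0.43 to 0.41, limma adjusted p = 0.988). BMP4, another ligand, had 124, 92.6 and 94.6 against 74.0, 66.8 and 59.8, with no overlap, and did not pass the test (log2 difference −0.62, limma unadjusted p = 0.0121, adjusted p = 0.153). BMP2 was the scarcer ligand in the vector libraries also per kb, at 5.44 scaled reads per kb against 62.1 for BMP6 and 33.7 for BMP4.

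BMPR2, a type II BMP receptor, had 634, 557 and 673 scaled reads in vector replicates 1, 2 and 3 and 2385, 1963 and 2379 in nPD-L1 replicates 1, 2 and 3 (log2 difference 1.85, standard error 0.12, limma adjusted p = 5.65e-06). ACVR1, a type I receptor, had 351, 426 and 414 against 745, 565 and 582 (0.66, standard error 0.14, limma adjusted p = 0.0208). The call of ACVR1 was lost without vector replicate 1 (adjusted p = 0.124), without nPD-L1 replicate 1 (0.111) and without nPD-L1 replicate 3 (0.0689). On the 4 libraries with recovered reads, that call was also lost in edgeR (adjusted p = 0.182), DESeq2 (0.166) and limma (0.201). FURIN, a protease that trims prohepcidin and many other precursors, had 1273, 1457 and 1286 against 5301, 5295 and 4864 (1.95, standard error 0.10, limma adjusted p = 1.25e-06).

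The 8 BMP-SMAD target and feedback genes respond to the same SMADs as HAMP does in hepatocytes. Of them, 5 rose and 0 fell, where 4.04% of all genes tested rose and 0.922% fell. The median log2 difference was 1.41. This list too was written with earlier results of these data known, so its count is a description. ID3 had 996, 1833 and 949 scaled reads in vector replicates 1, 2 and 3 and 7397, 7841 and 6465 in nPD-L1 replicates 1, 2 and 3 (log2 difference 2.58, standard error 0.21, limma adjusted p = 4.10e-05). The other 4 that rose were SMAD7 (2.21), BAMBI (1.77), ID1 (1.67) and SMAD6 (95% interval 0.79 to 1.22), with no overlap between the groups in any. ID2 (0.24), SMAD9 (1.15) and ATOH8 (0.47), a factor linked to HAMP transcription, did not pass the test. Genes of this list also respond to other SMAD signals, and the source of their change was not tested.

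**Figure D4:**
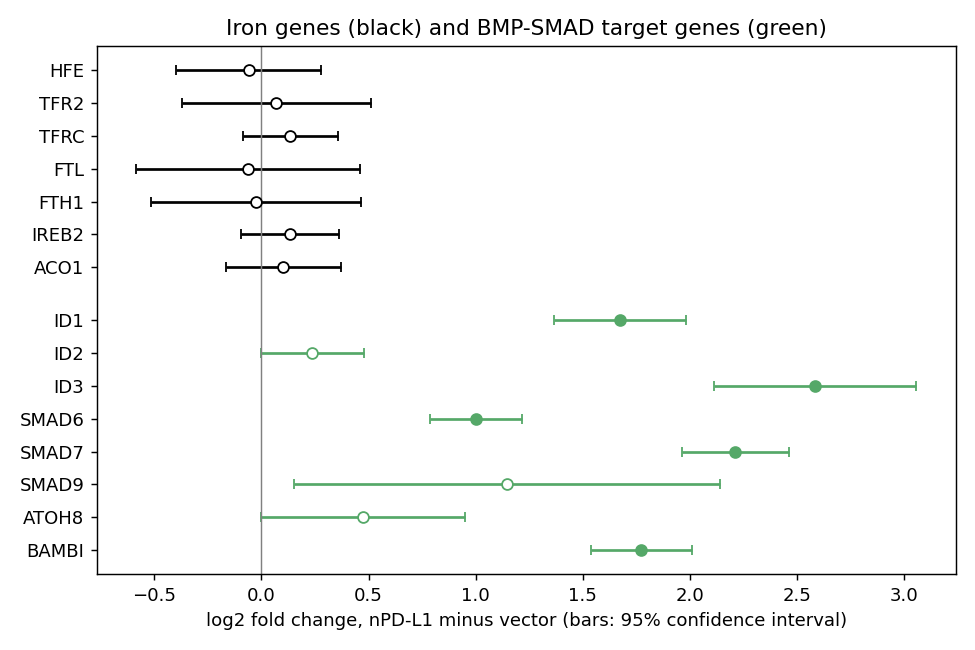
Log2 difference of nPD-L1 minus vector with its 95% confidence interval from limma for the 7 iron genes tested (black) and the 8 BMP-SMAD target genes (green), with filled points for an adjusted p under 0.05. All 7 iron gene intervals include 0. The intervals of the 5 filled green points lie above 0, as their calls require, the lowest from 0.79. The interval of the unfilled SMAD9 runs from 0.15 to 2.14.

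In the interleukin-6 and STAT3 input, 8 of 9 genes were tested, and 1 fell while 0 rose. Over all genes tested, 0.922% fell and 4.04% rose. IL6, the cytokine itself, had 52.5, 82.4 and 23.9 scaled reads in vector replicates 1, 2 and 3 and 4.20, 5.06 and 11.6 in nPD-L1 replicates 1, 2 and 3 (log2 difference −2.71, standard error 0.52, limma adjusted p = 0.0106). The groups did not overlap, but the values were low, and the call was lost without vector replicate 1 (adjusted p = 0.0669) and without nPD-L1 replicate 1 (0.0679). With a pseudocount of 10 in place of 1 the log2 difference was −1.80. The 7 others, which include the receptor chains, JAK1, JAK2, STAT3 and SOCS3, had log2 differences up to 0.41 and adjusted p values of 0.363 or more.

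None of the genes tested that move or store iron passed the test. Of 14 genes of iron import, export, reduction and oxidation, 11 were tested. In limma 0 were called and 2 had an unadjusted p under 0.05, against 4.96% and 14.2% of all genes tested. With so few genes, a count of 0 is near that share. SLC40A1, which encodes ferroportin, had 36.3, 55.3 and 31.2 scaled reads in vector replicates 1, 2 and 3 and 26.9, 52.6 and 36.7 in nPD-L1 replicates 1, 2 and 3 (log2 difference −0.09, interval −0.81 to 0.64). The importers SLC11A2 (968, 795 and 982 against 874, 998 and 1022; log2 difference 0.08, interval −0.18 to 0.34) and SLC39A14 (2341, 1809 and 2890 against 2777, 2333 and 2589; 0.15, interval −0.19 to 0.50) also overlapped between the groups.

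Of 9 genes of ferritin chaperones, ferritin turnover and control of the iron-regulatory proteins, 8 were tested. In limma 0 were called and 2 had an unadjusted p under 0.05, against 4.96% and 14.2% of all genes tested. NCOA4, the receptor that carries ferritin to autophagy, had 3466, 3739 and 3447 scaled reads in vector replicates 1, 2 and 3 and 4014, 4366 and 4132 in nPD-L1 replicates 1, 2 and 3. The groups did not overlap, but the difference was small (0.23, standard error 0.09, interval 0.03 to 0.44) and did not pass the test (limma adjusted p = 0.270). FBXL5, which targets the iron-regulatory protein IREB2 for degradation, had 1191, 1091 and 1321 against 1025, 896 and 965 (−0.32, adjusted p = 0.174).

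Of the heme genes, HMOX1 was called. HMOX1, heme oxygenase 1, which releases iron from heme and also responds to oxidative stress, had 592, 648 and 438 scaled reads in vector replicates 1, 2 and 3 and 973, 1102 and 986 in nPD-L1 replicates 1, 2 and 3. Every nPD-L1 library lay above every vector library, and the log2 difference was 0.88 (standard error 0.15, interval 0.56 to 1.21, limma adjusted p = 0.00486). It was the single gene of the 10 tested for heme transport and breakdown that rose, and 0 fell, where 4.04% and 0.922% of all genes did. On the 4 libraries with recovered reads, its log2 difference was 0.86 in edgeR (adjusted p = 0.0923), 0.88 in limma (0.0657) and 0.85 in DESeq2 (0.0236), so that only DESeq2 of the 3 kept the call. Of the 8 heme synthesis genes tested, 0 were called in limma and 0 had an unadjusted p under 0.05. Over all genes tested these shares were 4.96% and 14.2%. The log2 differences of the 8 ran from −0.25 to −0.00286.

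For mitochondrial iron and iron-sulfur cluster assembly, 17 genes were tested. In limma 0 were called and 2 had an unadjusted p under 0.05, against 4.96% and 14.2% of all genes tested. The closest was SLC25A37, which encodes the iron importer mitoferrin-1, at 630, 520 and 757 scaled reads in vector replicates 1, 2 and 3 and 892, 849 and 963 in nPD-L1 replicates 1, 2 and 3 (log2 difference 0.52, adjusted p = 0.0684). SLC25A37 was called in the fit with no filter, with the replicate number as a block and without vector replicate 3. It is named here because its values were seen.

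Over the 8 lists, 85 of 95 genes were tested, of which 10 rose and 1 fell. In the 5 lists of iron and heme genes without the BMP and interleukin-6 inputs, 1 of 54 rose, 0 fell and 7 had an unadjusted p under 0.05, with a median log2 difference of −0.08. Over all genes tested these shares were 4.04% higher, 0.922% lower and 14.2% at an unadjusted p under 0.05, so the count of 7 was near the background. Without vector replicate 2, 13 genes of the 8 lists were called, all 11 among them and also CYBRD1 and FBXL5. On the 4 libraries with recovered reads, edgeR called 8 and DESeq2 10 genes of the lists, all among the 11, so that both tools also called 0 in the lists where limma called 0.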

How the data were processed

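RNA was isolated with a TRIzol Plus kit, libraries were made with a NEBNext Ultra kit, and sequencing was done by a company. The submitters' processing notes name CASAVA, HISAT2 2.0.5 and hg38; the counter, annotation and strand setting are not given in the sources used here. The deposited values are a signal: for each library, the authors divided the reads on a gene by a size factor. The table also holds the authors' group means, log2 fold changes, p values and adjusted p values, which were not used.

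Differences were tested with limma 3.58.1 in R 4.3.3 on log2(value + 1), with trend and robust moderation, after keeping genes that reached 10 in 3 or more of the 6 libraries, with Benjamini-Hochberg adjustment over all 15076 and calls at an adjusted p under 0.05. A fold change on this scale understates the change of low genes. A single value was compared by an exact permutation test. In all 6 libraries 100% of values lay within 0.001 of a whole multiple of 1 step. Whole reads were accepted in nPD-L1 replicates 1 and 3 and in vector replicates 2 and 3. They were not accepted in vector replicate 1 and nPD-L1 replicate 2, whose step of 1.01 was close to 1. These 2 libraries also lay on whole multiples of their step, so the values themselves did not require leaving them out. edgeR 4.0.16 and DESeq2 1.42.0 were run on the 4 accepted libraries. The fits were tested on simulated data. There limma on 6 libraries recovered 26.2% of 1.5-fold, 75.8% of 2-fold and 92.1% of 4-fold changes. On 4 libraries edgeR recovered 7.69% and DESeq2 15.4% of the 1.5-fold changes. Of all calls, 6.72% were wrong in limma, 8% in edgeR and 13.5% in DESeq2. A count of 0 calls therefore does not exclude changes of about 1.5-fold.

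The named genes were all 10 members, the pathway genes called, HJV, BMP6, SLC40A1, SLC11A2, SLC39A14, NCOA4, HMOX1 and the 5 genes most like TFRC. BMP4 and other BMP-SMAD genes not called, FBXL5, SLC25A37, CYBRD1, CD274, FGA, FGG, KRT8 and KRT18 were named after their values were seen. The members and lists were chosen with earlier results of these data known. AFP, HJV, STEAP4, HEPH, LTF, FTMT, FDX2, HP and some markers of other cells had no row by those names and were not analysed.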

Additional observations from a re-analysis of the deposited data

How the results depend on the processing

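Of the 10 iron genes, 0 were called in either direction under any of the 18 alternatives run, including the fit with no filter, in which all 10 were tested. Differences near 0 changed sign. BMP6 turned to 0.00057 with a trimmed mean of M values. With a trend on gene length removed (an alternative chosen after the data were seen, as was limma on 4 libraries), FTH1 was 0.031, FTL 0.012, IREB2 −0.00092, BMP6 0.0081 and SLC11A2 −0.049. On the 4 libraries with recovered reads ACO1 was −0.031 in edgeR, −0.038 in DESeq2 and −0.035 in limma. With each library left out in turn, the log2 differences ran from −0.16 to 0.064 for HFE, −0.061 to 0.23 for TFR2, −0.23 to 0.26 for FTH1, −0.29 to 0.25 for FTL, −0.0030 to 0.18 for ACO1, −0.14 to 0.14 for BMP6, −0.33 to 0.15 for SLC40A1, −0.019 to 0.15 for SLC11A2 and −0.023 to 0.31 for SLC39A14, and from −0.15 to 0.40 for the ratio of TFRC to FTH1. The cause of these shifts was not tested.

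Over all genes, 609 were called higher and 139 lower. These counts were 331 to 791 and 76 to 242 with a library left out, 235 and 48 in edgeR, 333 and 85 in DESeq2 and 254 and 53 in limma on 4 libraries, where fewer libraries entered. The labels do not say whether the replicate numbers pair the libraries. Same-numbered deviations correlated at −0.01, 0.23 and 0.13 for replicates 1, 2 and 3. Replicates 2 and 3 correlated best with their own number and replicates 1 did not, so a pairing was not settled. With the replicate number as a block, 927 were higher and 258 lower, 0 of the 10 iron genes were called, and 13 pathway genes were called, the 11 and also SLC25A37 and SOCS3. Of the pathway lists, 1 gene was called lower, and 0 were with a value of 10 required in every library (IL6 was then not tested), in edgeR and in limma on 4 libraries, and 0 to 2 with a library left out. IL6, ACVR1 and HMOX1 were the pathway genes that lost their call in some alternative. In the 4-library fits the depth and number of libraries limit what can be called, and HAMP and TF stayed under the floor of 3 reads.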
